A study of Mus musculus with 6 samples.

Results

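Peroxisomes are small membrane-bound organelles that shorten very-long-chain and branched fatty acids, start the synthesis of ether lipids and handle the hydrogen peroxide made on the way. Their matrix enzymes are made in the cytosol, carried in by the receptors PEX5 and PEX7, and released inside, after which PEX5 is ubiquitinated and pulled back out by an ATPase. In macrophages, long and branched acyl chains arrive with engulfed membranes, and ether lipids are a large part of the phospholipid pool.

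The genes described are 29 peroxisomal genes, found by symbol in a deposited expression table of 29957 genes, where each stands on 1 row. They comprise 12 peroxins (the PEX proteins that build and divide the organelle), 15 lipid enzymes and transporters, and 2 other peroxisomal proteins, Pxmp4 and Lonp2. RNA was sequenced from wild-type mouse bone marrow-derived macrophages, which are grown in culture from marrow cells. In the labels, 3 libraries are controls and 3 received LPS (the bacterial ligand of TLR4) and then PA-BSA, a free fatty acid on albumin, a group called LPS+PA from here on. The series describes the fatty acid as a replacement for ATP in activating the Nlrp3 inflammasome. Dose, time and age are not in the labels, nor whether the controls got LPS or albumin, so LPS and the fatty acid cannot be told apart here. Nor do the labels say that the 3 libraries of a group are separate animals or cultures, so p-values may measure technical spread only.

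Values are FPKM (fragment numbers divided by transcript length and by the mapped total of the library), which allow levels of different genes to be compared per length. The libraries held about 13.9 to 21.1 M (mega) fragments, an estimate from the spacing of low FPKM values. Of 8 macrophage markers all were found, with a summed level of 18878 to 21927 FPKM in controls and 12059 to 14306 FPKM in LPS+PA, most of it Lyz2. Adgre1 (F4/80) was at a mean of 1400 and 1417 FPKM, and Fcgr1 rose from 37.5 to 176 FPKM. Lyz2 fell from 17158 to 10138 FPKM, Cd68 from 1181 to 762 and Csf1r from 305 to 207. Itgam fell from 214 to 180 FPKM and Mertk from 26.9 to 13.7. In each of these falls no LPS+PA library reached the lowest control, whereas the groups of Cd14 (136 and 183 FPKM) overlapped. Of 5 stromal markers 1 stayed under 1 FPKM in every library, and their sum was 61.6 to 119.5 FPKM in controls and 30.6 to 38.3 FPKM in LPS+PA, with Col1a1 and Col1a2 lower and Dcn higher (4.91 to 23.3 FPKM). The sums of 7 neutrophil markers were 10.6 to 22.3 and 59.4 to 75.3 FPKM. S100a8 was at a mean of 7.39 and 62.3 FPKM and S100a9 at 7.55 and 3.82 FPKM. Ly6g and Mpo stayed at 0.163 FPKM or less in every library. Ltf was at a mean of 0.891 and 0.108 FPKM, Camp at 0.904 and 0.771 FPKM, and Retnlg at 0.448 and 0 FPKM. The B cell list summed to 9.45 to 11.1 FPKM in controls and 1.26 to 1.42 FPKM in LPS+PA, nearly all of it Cd79b, and the T and NK cell list to 6.34 to 7.35 and at most 1.37 FPKM, nearly all of it Cd4. The dendritic cell list, mostly Itgax, summed to 8.28 to 11.1 and 2.95 to 4.30 FPKM, and the mast cell and erythroid lists to at most 5.40 FPKM in any library. The part of these shifts in the peroxisomal results was not tested, and in bulk RNA fewer cells of a type and less RNA per cell cannot be told apart. In control 3 and LPS+PA 1, transcripts rich in G and C were low for their group. Genes at or above the upper quartile of transcript GC content (54.1%) had a median deviation from their group mean of -0.29 in control 3 and -0.18 in LPS+PA 1 on the log2(FPKM + 1) scale, against 0.06 to 0.18 in the other 4 libraries. Results that rest on these libraries are therefore given with and without them.

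Acox3, Hsd17b4, Scp2 and Ech1, enzymes that shorten acyl chains, were all lower in LPS+PA, as were the export enzymes Crot and Acot8. So were the very-long-chain transporter Abcd2, the breakdown enzyme Hacl1, the membrane protein gene Pxmp4 and the peroxins Pex5 and Pex6. The calls of Acot8 and Pex6 ended in several alternative settings, among them removal of each library's trend on GC content and length of transcripts. Acaa1a and Phyh, of the same breakdown pathways, did not pass the test. Pex11a, which elongates and divides peroxisomes, was 2.45 times as high, and the transporter Abcd3 was 1.43 times as high. The genes of membrane assembly, the other tested genes of import and receptor recycling, and the ether lipid enzymes did not pass the test. Each gene was tested with limma on log2(FPKM + 1), with Benjamini-Hochberg adjustment over the 11364 genes that reached 1 FPKM in 3 libraries or more and a threshold of 0.05.

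Of the 29 genes, 27 passed this filter, and 2 were higher, 11 lower and 14 not past the threshold. Across all 11364 tested genes 55.1% were called, 22.2% higher and 32.9% lower, and the median log2 fold change was -0.11. Among the 11 tested peroxins 1 was higher and 2 were lower, with a median of -0.08. Among the 14 tested lipid enzymes and transporters 1 was higher and 8 were lower, with a median of -0.50. Abcd2, Hacl1 and Pxmp4 passed the filter through the controls alone, so these counts and medians are descriptions only, and the changes of these 3 are given below without a p. Without these 3, 6 of 12 tested lipid enzymes and transporters were lower, with a median of -0.39. Whether peroxins and lipid genes differ as groups was not tested. Leaving out control 3 and LPS+PA 1 gave 3 higher and 14 lower of the 27, where 26.0% of all genes were called higher and 40.1% lower. They included 1 higher and 4 lower peroxins, and 2 higher and 9 lower lipid genes. With each library's trend on GC content and length of transcripts removed, 4 were higher and 12 lower, against 28.1% and 32.4% of all genes. Tests in control 3, LPS+PA 1 and LPS+PA 2 alone, where the lone control is assumed to vary like the others, ended the calls of Pex5 (-0.39), Pex6 (-0.47), Abcd3 (0.40), Scp2 (-0.54), Ech1 (-0.47), Hacl1 (-0.49) and Acot8 (-0.26), all in the same direction as before. This set of libraries does not follow GC content and is not taken as a batch. In GC-rich genes LPS+PA 2 deviated by 0.06, against -0.29 in control 3 and -0.18 in LPS+PA 1. In 2 of the 29 genes every LPS+PA library was above every control, and in 13 every one was below, against 26.3% and 36.9% of the tested genes (63.2% in either direction). In the authors' deposited table, 2 of the 29 were higher and 12 lower at a q-value under 0.05. Of all 29957 rows 25.0% were under it in either direction. Those rows include the genes that did not reach the filter, so this share is not a like background for the 29. No share by direction was taken.

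**Figure D1:**
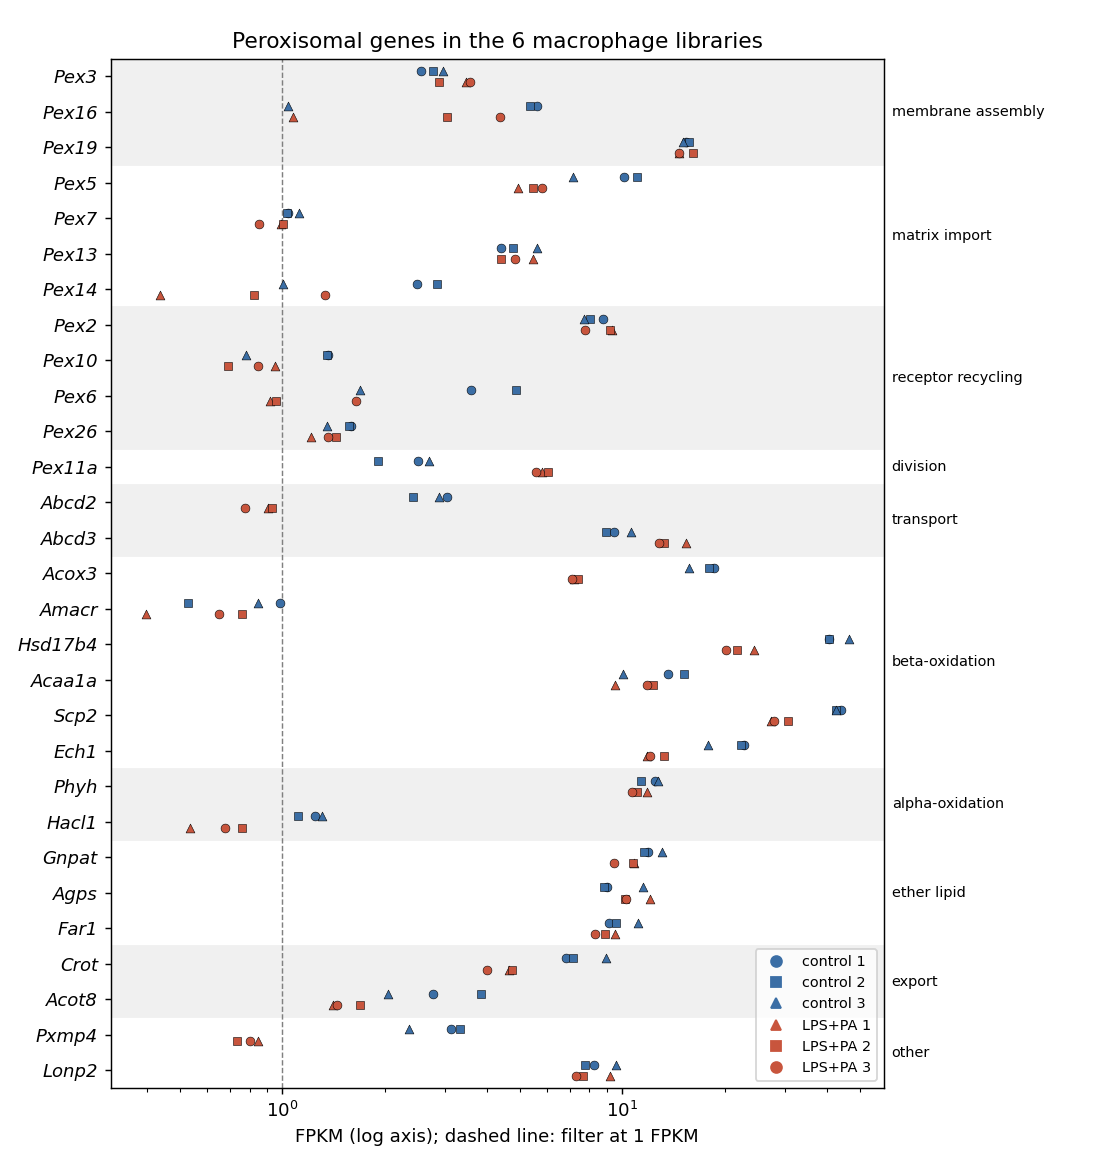
FPKM of the 29 peroxisomal genes in each library on a log axis, ordered by role, with controls in blue and LPS+PA in red. Pex11a and Abcd3 are the 2 genes whose LPS+PA points all lie to the right of the controls, and triangles (control 3 and LPS+PA 1) sit to the left for Pex16, Pex14 and Acaa1a.

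**Figure D2:**
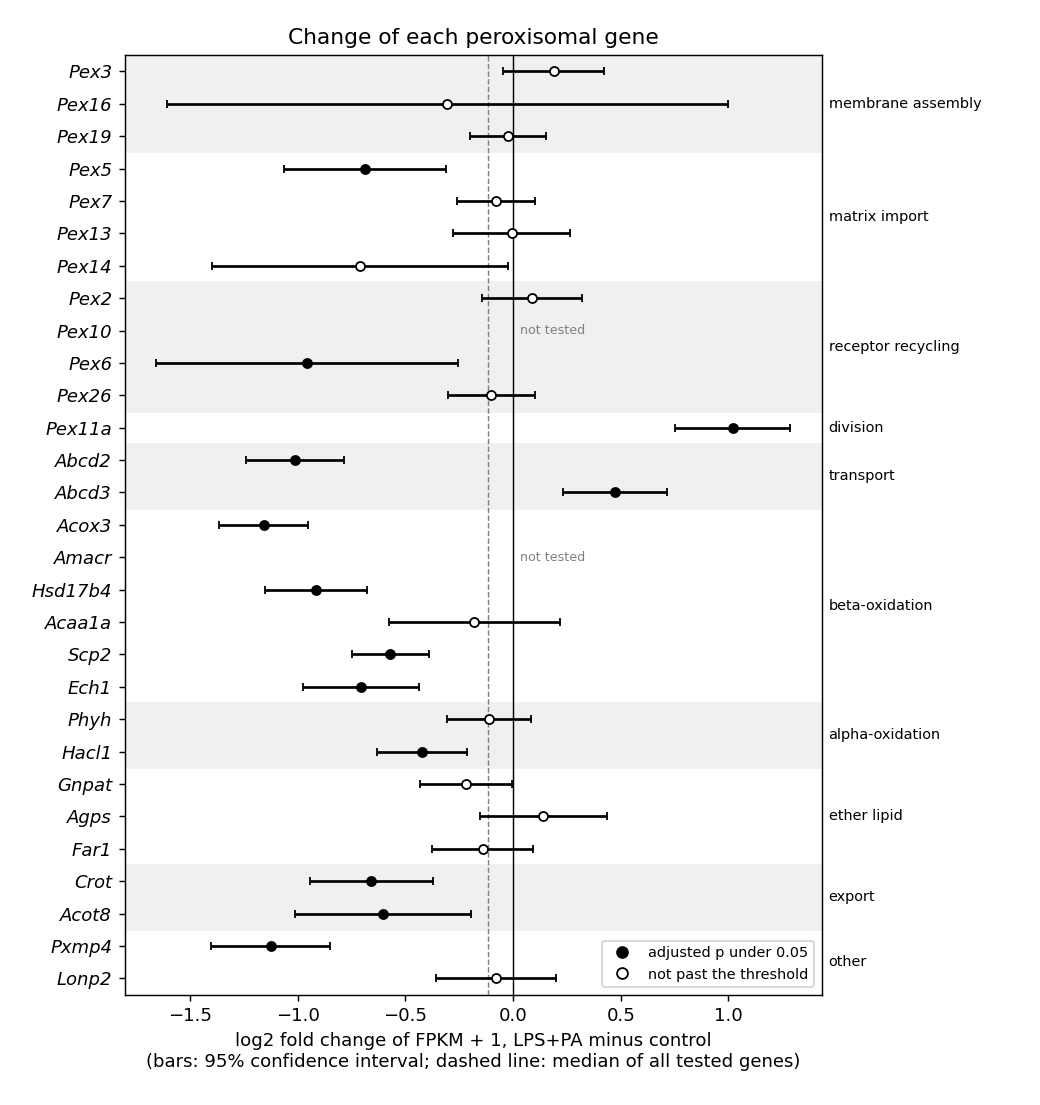
Log2 fold change of FPKM + 1, LPS+PA minus control, with its 95% confidence interval, for the 27 tested genes, with filled points past the threshold. Most of the falls are among the acyl-CoA oxidation and export genes, and the intervals of Pex16, Pex14 and Pex6 are the widest.

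Pex11a had the largest rise among the 27 tested genes. It was at 2.51, 1.91 and 2.70 FPKM in controls 1 to 3 and at 5.82, 6.05 and 5.57 FPKM in LPS+PA 1 to 3. Every treated library lay above every control. The group means were 2.37 ± 0.414 and 5.81 ± 0.243 FPKM (mean ± SD of n = 3), a log2 fold change of 1.02 (SE 0.111, adjusted p = 0.000408 by limma). Without control 3 and LPS+PA 1 it was 1.09, and LPS+PA 1 minus control 3 alone gave 0.88. In mm10 the gene lies on chromosome 7 at 79735957 to 79743131, on the minus strand.

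The sequences around the start sites of Pex11a, the gene that rose most, and of Acox3 and Pxmp4, the genes with the largest falls on this scale, are shown to set their promoters side by side. They come from RefSeq (GRCm38.p6), run 5′ to 3′ on the gene's strand from 250 bases before the start site to 50 after it, and have the motifs CCGGAA (the ETS core) and GGGCGG (the GC box) in capitals on either strand. The windows are chr7:79743082-79743381 (minus strand) for Pex11a, chr5:35582784-35583083 (plus strand) for Acox3 and chr2:154603624-154603923 (minus strand) for Pxmp4.
Pex11a: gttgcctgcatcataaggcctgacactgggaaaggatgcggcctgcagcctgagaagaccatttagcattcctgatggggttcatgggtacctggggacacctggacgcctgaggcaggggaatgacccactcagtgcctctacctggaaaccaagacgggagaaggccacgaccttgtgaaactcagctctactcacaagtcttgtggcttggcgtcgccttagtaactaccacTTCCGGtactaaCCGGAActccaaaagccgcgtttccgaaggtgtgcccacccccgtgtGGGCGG
Acox3: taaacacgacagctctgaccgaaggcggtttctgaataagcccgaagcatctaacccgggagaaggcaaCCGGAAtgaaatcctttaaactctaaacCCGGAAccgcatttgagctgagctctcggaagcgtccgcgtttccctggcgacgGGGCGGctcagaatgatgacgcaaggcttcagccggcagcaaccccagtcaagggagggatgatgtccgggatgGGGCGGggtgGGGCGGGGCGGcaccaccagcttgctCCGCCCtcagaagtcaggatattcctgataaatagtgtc
Pxmp4: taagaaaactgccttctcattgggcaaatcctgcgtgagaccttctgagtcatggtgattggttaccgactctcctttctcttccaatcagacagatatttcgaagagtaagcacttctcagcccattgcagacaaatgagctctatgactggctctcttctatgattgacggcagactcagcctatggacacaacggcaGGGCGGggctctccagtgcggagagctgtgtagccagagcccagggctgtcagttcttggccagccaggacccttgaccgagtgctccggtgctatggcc

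Pex11a held CCGGAA on the minus strand just before its start site and on the plus strand across the start site. Acox3 held CCGGAA 2 times further upstream, and none was found in the Pxmp4 window. GGGCGG was present in all 3, and in Acox3 adjoining copies overlapped. Promoter windows matched 24 of the 29 genes, with 29 windows in all. No window was used for Abcd2, Amacr, Hsd17b4, Pex19 and Pex2. CCGGAA stood in 37.9% of the 29 windows and in 14.9% of all 32851 promoter windows of the same length, and GGGCGG in 72.4% and 35.7%. The nuclear receptor motif AGGTCA stood in 6.90% and 16.3%, in the windows of Phyh and Scp2. The E-box CACGTG was in 6.90% and 7.15%, in the windows of Gnpat and Lonp2. All motifs were searched on both strands, copies may overlap, and matches describe letters, not bound sites. The background holds all promoter windows, whether or not their genes were tested here, and no share over the tested genes was taken.

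Among the other peroxins, membrane assembly uses Pex19, the cytosolic carrier of peroxisomal membrane proteins, Pex3, its dock, and Pex16, and none of the 3 passed the test. Pex19 was the steadiest of them, at 15.1 to 15.7 FPKM in controls and 14.7 to 16.1 FPKM in LPS+PA. Its log2 fold change was -0.02 with a 95% interval of -0.20 to 0.15, a direction that turned under quantile normalization (0.01) and median ratio scaling (0.09). Pex3 was at 2.77 ± 0.210 and 3.30 ± 0.368 FPKM (mean ± SD of n = 3), with an interval of -0.05 to 0.42. Quantile normalization brought Pex3 past the threshold (log2 fold change 0.39), and removing the GC and length trend took it to -0.02. Pex3 shares 249 exonic bases with Adat2 on the other strand, at 2.03 to 2.73 FPKM in controls and 2.78 to 3.74 FPKM in LPS+PA. The part of this overlap was not tested. Pex16 split by library and not by treatment. It was at 5.59 and 5.35 FPKM in controls 1 and 2 but 1.04 in control 3, and at 1.07 FPKM in LPS+PA 1 but 3.05 and 4.37 in LPS+PA 2 and 3. Its interval ran from -1.61 to 1.00, and without control 3 and LPS+PA 1 it passed the threshold as lower (-0.47). The single pair of LPS+PA 1 and control 3 differed by 0.02.

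In matrix import, Pex5, the receptor of proteins with the C-terminal signal PTS1, fell. It was at 10.1, 11.0 and 7.14 FPKM in controls 1 to 3 and at 4.94, 5.45 and 5.78 FPKM in LPS+PA 1 to 3. The groups did not overlap, with control 3 the nearest to the treated libraries. The log2 fold change was -0.69 (SE 0.157, adjusted p = 0.0104 by limma), -0.80 without control 3 and LPS+PA 1 and -0.45 between that pair. It was -0.29 once each library's trend on transcript GC and length was removed, still past the threshold. Pex7, the receptor for the N-terminal signal PTS2, was near the filter at 1.03 to 1.12 FPKM in controls and 0.856 to 1.00 FPKM in LPS+PA. The 95% interval of its change ran from -0.26 to 0.10. Pex13, part of the import pore, was at 4.91 ± 0.623 and 4.88 ± 0.533 FPKM (mean ± SD of n = 3), with an interval of -0.28 to 0.27. Pex14, where loaded PEX5 docks, was at 2.48, 2.84 and 1.00 FPKM in controls and 0.436, 0.822 and 1.33 FPKM in LPS+PA 1 to 3. Its groups overlapped, and its log2 fold change of -0.71 did not pass (adjusted p = 0.0739 by limma). Without control 3 it was -1.0 and passed, and it also passed without both control 3 and LPS+PA 1 (-0.83). The authors' deposited table gives Pex14 a log2 fold change of -1.29 and a q-value of 0.0277. These Pex14 values rest on about 13 to 81 fragments a library.

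Receptor recycling was represented by Pex2 and Pex10, subunits of the ubiquitin ligase, Pex6, the ATPase that extracts PEX5, and Pex26, its membrane anchor. Pex2 was at 7.73 to 8.74 FPKM in controls and 7.76 to 9.30 FPKM in LPS+PA, with a 95% interval of -0.14 to 0.32 for the log2 fold change. Pex10 did not reach the filter, at 0.783 to 1.36 FPKM in controls and 0.693 to 0.952 FPKM in LPS+PA. Pex26 was at 1.51 ± 0.131 and 1.34 ± 0.115 FPKM (mean ± SD of n = 3). It did not pass, at -0.10, but was called higher after the GC and length trend was removed (0.45). Pex6 was at 3.59, 4.85 and 1.69 FPKM in controls and 0.916, 0.959 and 1.64 FPKM in LPS+PA. Control 3 and LPS+PA 3 all but met. Its log2 fold change of -0.96 (SE 0.292, adjusted p = 0.0306 by limma) is a call that ended in several settings. It ended without control 1 (-0.89), control 2 (-0.71), LPS+PA 1 (-0.87) or LPS+PA 2 (-0.89). It held without control 3 (-1.27) or LPS+PA 3 (-1.10). The call also ended without a filter, under quantile normalization (-0.73) and after the trend removal, where the change was smallest of these (-0.14). Without control 3 and LPS+PA 1 together it stayed past the threshold at -1.19.

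**Figure D3:**
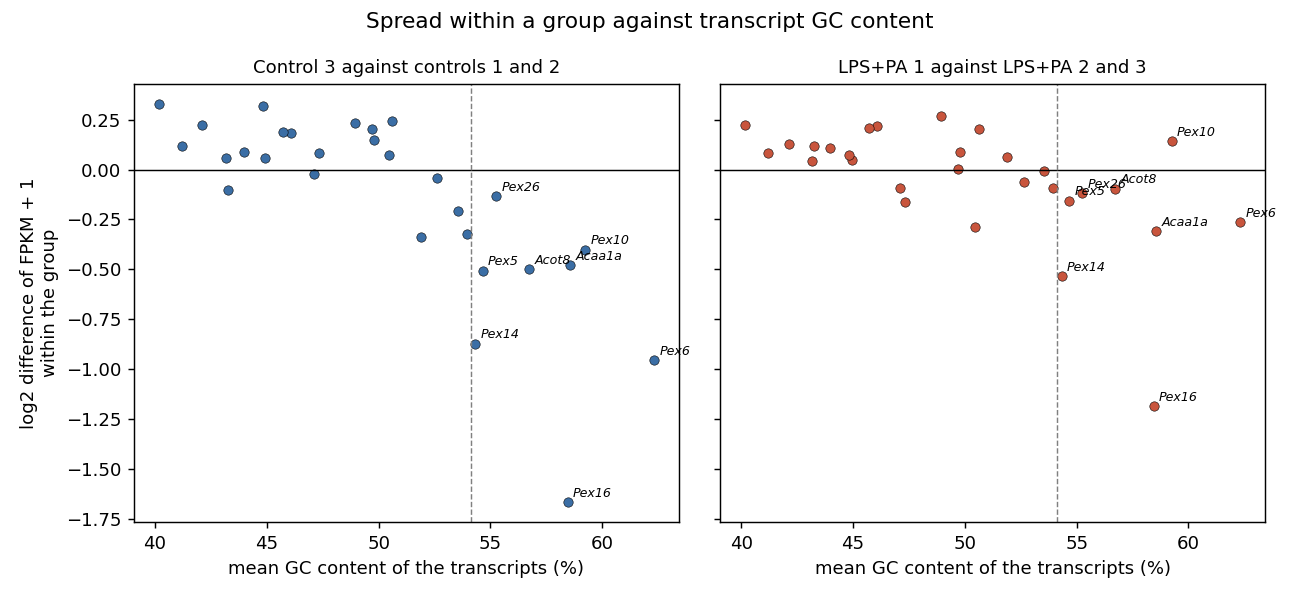
Log2 difference of FPKM + 1 within a group against the mean GC content of each gene's transcripts, for control 3 against controls 1 and 2 (left) and LPS+PA 1 against LPS+PA 2 and 3 (right), with a dashed line at the upper quartile of all tested genes. All 8 genes right of the line are below 0 in control 3, and 7 of them, all but Pex10, are below 0 in LPS+PA 1.

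Transcript GC content, which the choice of genes did not use, went with this spread. The 8 genes at or above the upper quartile were Pex14, Pex5, Pex26, Acot8, Pex16, Acaa1a, Pex10 and Pex6, of which 6 are peroxins. In all 8 control 3 was the lowest control, and in 7 LPS+PA 1 was the lowest treated library. Of the 21 other genes, 5 were lowest in control 3 and 4 in LPS+PA 1. Among the 8, the coefficient of variation over the controls was 8.71% to 64.2%, and among the 21 it was 2.02% to 29.9%. Over the 29 genes, Pearson's r between GC content and the difference of control 3 from the other controls was -0.75 (Spearman's rho -0.76), and for LPS+PA 1 r was -0.56 (rho -0.60). These points share their libraries, and r is given as a description.

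Of the lipid genes, the acyl-CoA transporters moved in opposite directions. Abcd3 encodes PMP70, which carries branched-chain and dicarboxylic acyl-CoA into the peroxisome, and ABCD2 carries very-long-chain acyl-CoA. Abcd3 was at 9.46, 8.93 and 10.6 FPKM in controls and 15.3, 13.3 and 12.8 FPKM in LPS+PA, with no overlap (log2 fold change 0.47 with SE 0.102, adjusted p = 0.00809 by limma). It was 0.46 without control 3 and LPS+PA 1, and 0.50 between that pair. Abcd2 was at 3.05, 2.42 and 2.89 FPKM in controls and 0.908, 0.930 and 0.778 FPKM in LPS+PA. All treated libraries lay under the filter, and the mean was 3.19 times as high in controls (log2 fold change -1.01 with SE 0.0949). The LPS+PA values of Abcd2 rest on about 28 to 36 fragments a library. The ratio of Abcd3 to Abcd2 within a library, which no scaling of the library can move, was 3.10, 3.69 and 3.67 in controls and 16.9, 14.3 and 16.5 in LPS+PA.

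Peroxisomal oxidation starts with an acyl-CoA oxidase, and Acox3, the branched-chain oxidase, had the largest fall on the log2(FPKM + 1) scale among the 27 tested genes. It was at 18.6, 18.0 and 15.7 FPKM in controls and 7.20, 7.41 and 7.09 FPKM in LPS+PA. The treated libraries had an SD of 0.164 FPKM and lay far below every control. The log2 fold change was -1.16 (SE 0.0868, adjusted p = 7.98e-05 by limma), -1.23 without control 3 and LPS+PA 1 and -1.03 between that pair. Acox3 lies on chromosome 5 at 35583040 to 35615352 of mm10, and shares 700 exonic bases with 4931431C16Rik on the other strand, a gene at 0.061 FPKM or less. Hsd17b4, the D-bifunctional protein that carries out the middle steps, was at 40.6, 40.6 and 46.4 FPKM in controls and 24.4, 21.7 and 20.2 FPKM in LPS+PA. The groups stood well apart, with a log2 fold change of -0.92 (SE 0.0989, adjusted p = 0.000396 by limma), -0.92 without control 3 and LPS+PA 1 and -0.90 between them. Amacr, the racemase that readies branched chains, stayed under the filter in every library, at 0.396 to 0.983 FPKM, from about 12 to 33 fragments.

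The last step is thiolytic cleavage, by SCP2 for branched chains and by ACAA1A for straight chains. Scp2 was at 44.1, 42.5 and 42.6 FPKM in controls and 27.5, 30.7 and 28.0 FPKM in LPS+PA. The difference was large against the spread within either group, with a log2 fold change of -0.57 (SE 0.0742, adjusted p = 0.000919 by limma), -0.55 without control 3 and LPS+PA 1 and -0.62 between them. Its pseudogene Scp2-ps2 was listed at 4.39 to 6.71 FPKM, and reads can be shared between them. Acaa1a was at 13.7, 15.2 and 10.1 FPKM in controls and 9.54, 12.3 and 11.8 FPKM in LPS+PA, with overlapping groups and a 95% interval of -0.58 to 0.22. Acaa1a was called lower without control 3 and LPS+PA 1 (-0.24) and higher after the GC and length trend was removed (0.43). Acaa1a has a near-identical copy, Acaa1b, listed at 0.149 FPKM or less, and its exons overlap those of Myd88 on the other strand by 290 bases, so its level is uncertain. Ech1, the dienoyl-CoA isomerase, which is also found in mitochondria, was at 22.8, 22.3 and 17.8 FPKM in controls and 11.9, 13.3 and 12.1 FPKM in LPS+PA. Control 3 was again the lowest control, but the groups did not overlap (log2 fold change -0.71 with SE 0.113, adjusted p = 0.00231 by limma). The change was -0.78 without control 3 and LPS+PA 1, -0.55 between them and -0.45 after the trend removal, where it still passed.

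Shortened chains leave the peroxisome as carnitine esters made by CROT or as free acids released by the thioesterase ACOT8, and both genes were lower. Crot was at 6.81, 7.17 and 8.96 FPKM in controls and 4.64, 4.73 and 4.0 FPKM in LPS+PA. Here control 3 was the highest control, and the groups did not overlap (log2 fold change -0.66 with SE 0.119, adjusted p = 0.00392 by limma). The change was -0.58 without control 3 and LPS+PA 1, and between that pair -0.82. Acot8 was at 2.78, 3.83 and 2.05 FPKM in controls and 1.40, 1.69 and 1.45 FPKM in LPS+PA (log2 fold change -0.60 with SE 0.170, adjusted p = 0.0232 by limma). Its controls ran over a wider range than the difference between the group means. Acot8 shares 246 exonic bases with Snx21 on the other strand, at 0.657 to 1.78 FPKM in controls and 0.572 to 0.742 FPKM in LPS+PA. The part of this overlap in the Acot8 values was not tested. The Acot8 call ended without control 1 (-0.61), LPS+PA 1 (-0.57) or LPS+PA 3 (-0.59), without a filter, under quantile normalization (-0.38) and after the trend removal (-0.09), and it held without control 3 and LPS+PA 1 (-0.73).

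Alpha-oxidation removes the first carbon of phytanic acid, a branched fatty acid of the diet, through PHYH and then HACL1. Phyh was at 12.5, 11.3 and 12.7 FPKM in controls and 11.8, 11.1 and 10.7 FPKM in LPS+PA, overlapping groups with a 95% interval of -0.30 to 0.09. Removing the GC and length trend brought it past the threshold (-0.36). Hacl1 was at 1.24, 1.11 and 1.31 FPKM in controls and 0.536, 0.760 and 0.679 FPKM in LPS+PA. Those groups did not overlap, but the values rest on about 11 to 28 fragments a library, and Hacl1 passed the filter through the controls alone. Its log2 fold change was -0.42 (SE 0.0870), and quantile normalization ended the call (-0.18). Hacl1 shares 1540 exonic bases with Gm49387 on the same strand, and 108 on the other strand with Btd, a gene at 6.36 to 8.28 FPKM.

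None of the 3 ether lipid genes passed the test. Far1 supplies the fatty alcohol, Gnpat the first acylation and Agps the exchange that makes the ether bond. Gnpat was at 11.9, 11.6 and 13.1 FPKM in controls and 10.8, 10.8 and 9.45 FPKM in LPS+PA, without overlap, but its log2 fold change of -0.22 missed the threshold (adjusted p = 0.0760 by limma). Its 95% interval of -0.43 to -0.01 allows a small fall, and it passed after the trend removal (-0.30). Agps was at 8.99, 8.83 and 11.5 FPKM in controls and 12.1, 10.2 and 10.2 FPKM in LPS+PA, with an interval of -0.16 to 0.44. Agps passed as higher without control 3 and LPS+PA 1 (0.18). Far1 was at 9.93 ± 1.03 and 8.89 ± 0.595 FPKM (mean ± SD of n = 3), with an interval of -0.38 to 0.09, and was called lower after the trend removal (-0.43).

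Pxmp4, a peroxisomal membrane protein, fell from 2.94 ± 0.520 to 0.795 ± 0.0560 FPKM (mean ± SD of n = 3). It was at 3.13, 3.34 and 2.35 FPKM in controls and 0.847, 0.736 and 0.802 FPKM in LPS+PA, so every treated library lay under the filter, and the mean was 3.70 times as high in controls. The LPS+PA values rest on about 18 to 27 fragments a library. The log2 fold change was -1.13 (SE 0.115), -1.26 without control 3 and LPS+PA 1 and -0.86 between that pair. Lonp2, the protease and chaperone of the matrix, was at 7.78 to 9.60 FPKM in controls and 7.32 to 9.20 FPKM in LPS+PA, with a 95% interval of -0.36 to 0.20. Per length, Scp2 and Hsd17b4 were the most abundant of the 29 in both groups, at 43.1 and 42.5 FPKM in controls, a pair that did not differ beyond its spread, and at 28.7 and 22.1 FPKM in LPS+PA. Ech1 (21.0 FPKM), Acox3 (17.4 FPKM) and Pex19 (15.4 FPKM) came next in controls, and Pex19 (15.2 FPKM), Abcd3 (13.8 FPKM) and Ech1 (12.4 FPKM) in LPS+PA.

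**Figure D4:**
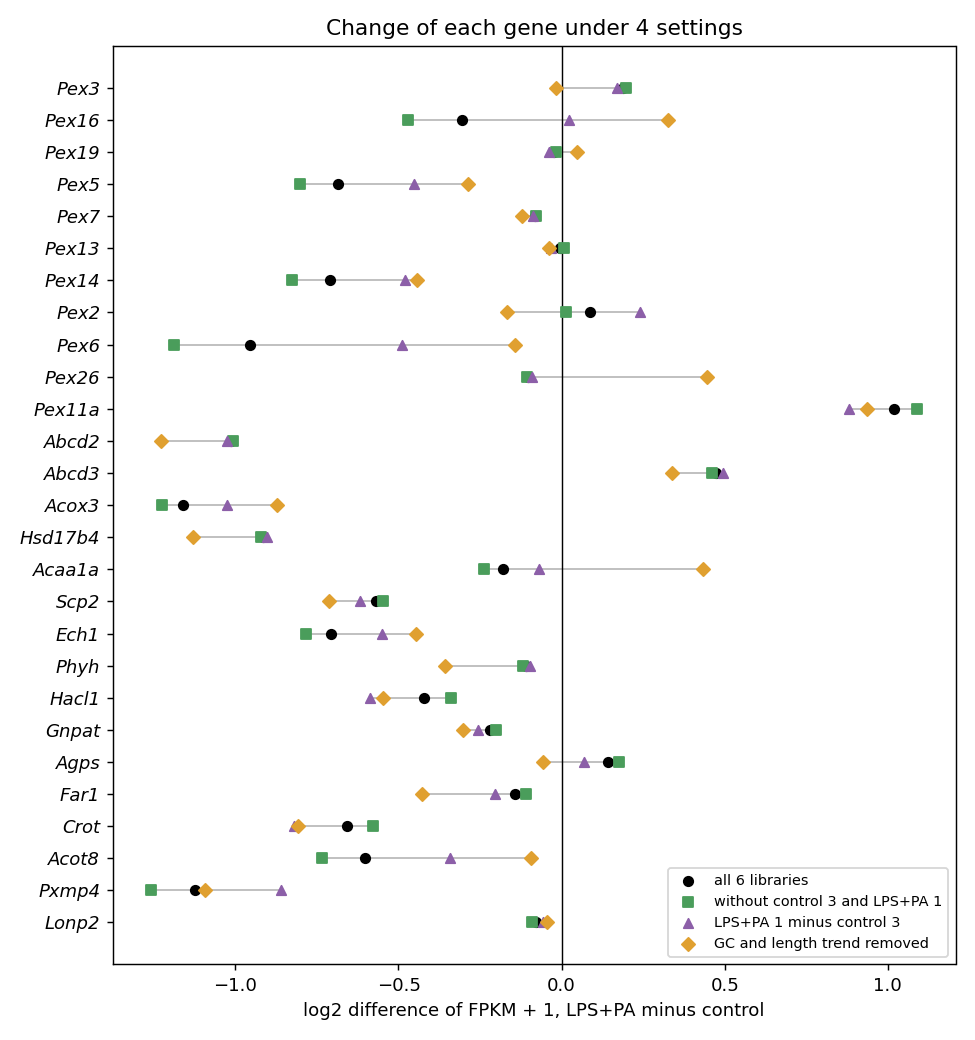
Log2 difference of FPKM + 1, LPS+PA minus control, for each tested gene with all 6 libraries, without control 3 and LPS+PA 1, between those 2 alone (no test), and after removing each library's trend on GC content and length. Acox3, Abcd2, Abcd3, Hsd17b4, Scp2, Crot and Pex11a are among the genes that keep their side of 0 in all 4. Pex16, Pex26 and Acaa1a are among those that cross it.

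Ratios within a library were taken for 4 pairs of related roles, picked after the values were seen. Hsd17b4 went from 21.9 ± 1.97 to 13.9 ± 1.63 times Ehhadh, the L-bifunctional protein (mean ± SD of n = 3). Agps went from 0.797 ± 0.0673 to 1.05 ± 0.0938 of Gnpat. In these and in the ratio of Abcd3 to Abcd2 the groups did not overlap. Pex5 over Pex7 was 8.94 ± 2.28 and 5.73 ± 0.921, with overlap. As the pairs were chosen for their values, no test is given.

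**Figure D5:**
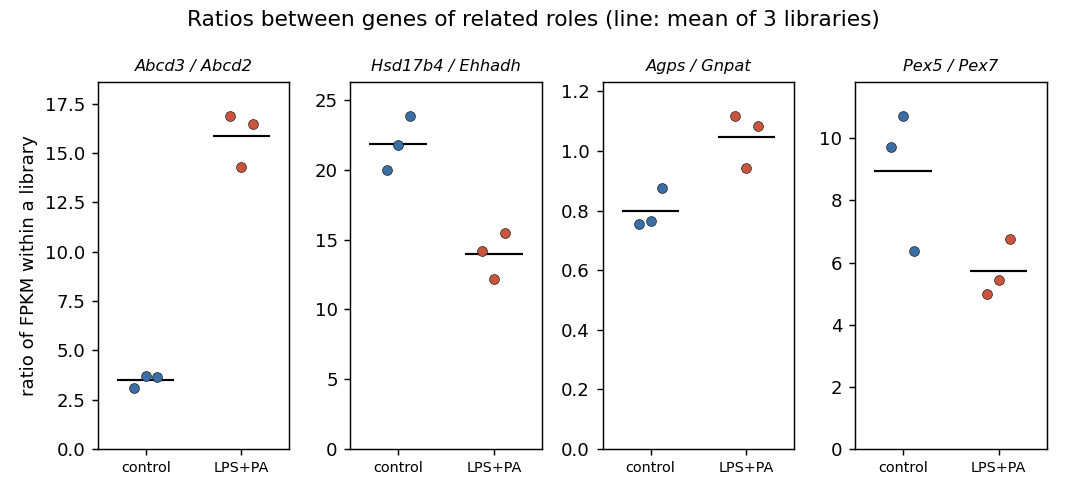
Ratio of FPKM between 2 genes within each library for 4 pairs, with 3 controls in blue, 3 LPS+PA libraries in red and lines at the means, on linear axes from 0. The ratio of Abcd3 to Abcd2 rises from 3.49 to 15.9, and Pex5 over Pex7 is the pair whose groups overlap.

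A wider list of 56 further genes of the organelle and its regulators had 53 in the table and 35 tested, of which 3 were higher and 18 lower, with a median log2 fold change of -0.38, against 22.2% higher, 32.9% lower and a median of -0.11 over all tested genes. Among the 18, Pparg and Nudt7 passed the filter through the controls alone, so the count is a description. Without control 3 and LPS+PA 1, 5 were higher and 22 lower, against 26.0% and 40.1% of all genes. Its called rises included Eci2, an enoyl-CoA isomerase of peroxisomal oxidation, which went from 5.76 ± 0.579 to 8.07 ± 0.687 FPKM (mean ± SD of n = 3). The largest called rise was that of Sqstm1, the autophagy receptor p62, from 261 ± 36.4 in controls to 835 ± 114 FPKM (log2 fold change 1.67 with SE 0.149, adjusted p = 0.000166 by limma). Dnm1l, the dynamin that cuts peroxisomes and mitochondria, rose from 16.1 ± 1.52 to 25.2 ± 1.53 FPKM. The largest falls were those of the nuclear receptors Pparg, from 6.10 ± 0.50 FPKM in controls to 0.808 ± 0.138 FPKM (log2 fold change -1.97 with SE 0.0981; no treated library reached the filter, so no p is given), and Rxra, from 22.2 ± 6.48 to 6.60 ± 1.05 FPKM. Mlycd, the malonyl-CoA decarboxylase (3.35 ± 1.09 to 1.04 ± 0.343 FPKM), fell too. After the trend removal the log2 fold changes of Rxra (-0.80) and Mlycd (-0.25) were smaller and still called. Ppara, the receptor that governs peroxisomal genes in rodent liver, was at 0.0465 FPKM or less in every library and was not tested.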

How the data were processed

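RNA was sequenced from 3 control and 3 LPS+PA-BSA libraries, grouped by their titles. Per the labels' protocols, poly(A) RNA was selected, the libraries kept strand through a dUTP-marked second strand, and they were read as pairs on an Illumina NovaSeq. The authors deposited FPKM values, 1 column a library, beside a ratio of group means (fold change), its log2 and p-values with q-values, per the file headers. The deposited ratio equalled the quotient of the mean FPKM, within 0.1%, in all 23889 rows where both means exceed 0. Per the submitters' processing notes, mm10 was the build, and HISAT2 (2.2.1), cutadapt (1.9), StringTie (2.1.6), edgeR and DESeq2 were used, without stated roles. Whether counting used strand is not given there.

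The deposited FPKM values were tested with limma 3.58.1 in R 4.3.3, with a variance trend, on log2(FPKM + 1), which understates changes of low genes. All 29957 genes entered the filter of 1 FPKM in at least 3 libraries, 11364 passed, and p-values were two-sided and adjusted by Benjamini-Hochberg. No count model was run, as the table holds no counts. Depths came from FPKM steps of genes with 1 transcript (tolerance 0.5%), and approximate fragments from these depths and the mean transcript length, which cover counting error only. Of the gene IDs, 29871 matched GENCODE M21 (mm10), which gave coordinates, overlaps, GC content and length. The GC and length trend was removed per library with splines of 5 degrees of freedom, which also takes out any part of the treatment difference that follows GC content or length. The limma script was tested on simulated data. Summaries and plots used scipy 1.17.1, numpy 2.4.6, pandas 2.3.3 and matplotlib 3.10.9 under Python 3.11.15.

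The genes, role groups and marker lists were chosen with earlier results of these data known. All 29 genes are described, and of the wider list up to 4 called genes with the largest change in each direction, of which 1 is not reported here.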

Additional observations from a re-analysis of the deposited data

How the results depend on the processing

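Of the 13 calls, those of Pex11a, Acox3, Hsd17b4 and Crot held under every alternative that could test them. Those of Abcd2 and Pxmp4 did so too, but both genes passed the filter through the controls alone, so this is a description only. With all 6 libraries 2 genes were higher and 11 lower. Counts of lower genes were 6 with a filter at 5 FPKM (5 lipid genes, 1 peroxin), where fewer genes were tested. Without a filter 1 peroxin was lower. After quantile normalization 2 peroxins were higher and 1 lower. After removing the GC and length trend 4 genes were higher (2 peroxins, 2 lipid genes), and 1 peroxin was lower. Array weights and leaving out control 3 with LPS+PA 1 (chosen after seeing the data) each gave 2 higher lipid genes, and the latter 4 lower peroxins. Using LPS+PA 1 and 2 with control 3, where the lone control is assumed to vary like the others, 1 gene was higher and 5 lower (0 higher and 4 lower lipid genes, 0 lower peroxins by limma, with 1, Pex6, lower at an unadjusted p under 0.05). Leaving out 1 library gave 9 to 12 lower genes, 1 to 3 lower peroxins. Of the wider list, 5 were higher under quantile normalization, median ratio scaling, trend removal, array weights, within controls 1 and 2 with LPS+PA 3 (where the lone treated library is assumed to vary like the others), and without control 3 and LPS+PA 1, 6 by the authors' q-value, and 1 higher with 6 lower in LPS+PA 1 and 2 with control 3. The share called over all genes was taken only with all 6 libraries, without control 3 and LPS+PA 1, with the trend removed, and by the authors' q-value. For the other settings, here and below, no such share was taken. A changed count there cannot be read as particular to these genes. The cause of these shifts was not tested.

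Genes with no call changed direction as follows. With the trend removed, Pex3 was at -0.017, Pex16 at 0.33, Pex19 at 0.048, Pex2 at -0.17, Agps at -0.058, and Pex26 (0.45) and Acaa1a (0.43) passed as higher. Under quantile normalization Pex19 was at 0.012, Pex7 at 0.15, Pex13 at 0.17, Pex26 at 0.12 and Lonp2 at 0.033. Median ratio scaling gave 0.092 for Pex19, 0.10 for Pex13, 0.0049 for Phyh and 0.033 for Lonp2. It moved the median log2 fold change of all genes from -0.11 to -0.01. Array weights gave 0.0097 for Pex19 and 0.030 for Pex13. In LPS+PA 1 and 2 with control 3, Pex16 was at 0.51, Pex19 at 0.026, Acaa1a at 0.10 and Agps at -0.045. Within controls 1 and 2 and LPS+PA 3, Pex13 was at 0.064 and Pex2 at -0.10. A term for these 2 sets, which are not taken as batches, put Pex16 at 0.12. Leaving out single libraries put Pex16 between -0.86 and 0.084 and Pex13 between -0.074 and 0.076, and without control 3 and LPS+PA 1 Pex13 was at 0.0081.

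Deviations of same-numbered libraries correlated at -0.47, 0.09 and -0.59. Control 3 and LPS+PA 1, both low in GC-rich transcripts, correlated at 0.60. As that trend enters all these values, they cannot decide whether the replicate numbers pair the libraries. With the number as a replicate block 2 genes were higher and 10 lower, with 1 lower peroxin. The thinnest libraries of Hacl1, Amacr, Pex10, Pex14 and Pex16 hold about 11 to 14 fragments of each, which limits these genes.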
